A study of Danio rerio with 3 samples.

Results

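The genes described here are cx39.4, cx45.6 and cx41.8, 3 zebrafish connexin genes whose mammalian relatives mark arterial endothelium. They were taken by their symbols, with no cutoff on their values, but earlier results of these data were known when they were chosen. All 3 were found among the 14581 symbols of the table for kdrl:mCherry+;sele:GFP+ cells. They were also found among the 33734 gene identifiers of the table for kdrl:GFP embryos. They were set against the other genes whose symbol starts with cx and a digit, 25 in the first table and 28 in the second. The series holds 3 RNA sequencing libraries from cells sorted out of whole zebrafish embryos at 72 hours after fertilization, with no treatment. The kdrl:GFP embryos were labelled wild-type. The double positive library came from embryos with 2 transgenes, kdrl:mCherry and sele:GFP, in which regulatory sequence of an endothelial Vegf receptor gene and of the E-selectin gene drives a red and a green protein. Its cells were positive for both colours. The other 2 libraries came from kdrl:GFP embryos, which carry 1 green reporter under kdrl, and hold the GFP positive and the GFP negative cells.

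The values of the kdrl:GFP libraries stand in columns coded EH_2 and EH_1, and the labels do not say which code is the positive and which the negative sort. The libraries are therefore called by their codes, and no sort was assigned to a code from its values. Each sort has 1 library, so there is no replicate, no test and no error between samples. An order of libraries or of neighbouring genes may lie within the spread that replicates would show. No arterial cells were sorted apart, so that the name arterial rests on background and was not checked in these libraries.

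Connexins are membrane proteins that form the channels of gap junctions, through which ions and small molecules pass between adjoining cells. In mouse arteries, endothelial cells are coupled mainly through Cx37 and Cx40, with Cx43 where flow is disturbed. The gene table used for names gives cx39.4 as gja4, the gene of the Cx37 relative, and cx45.6 and cx41.8 as gja5a and gja5b, both relatives of the Cx40 gene. In zebrafish, cx39.4 and cx41.8 are also known from mutants with altered pigment stripes, luchs and leopard.

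FPKM values are fragment numbers corrected for gene length and for library size, so that genes can be ranked within a library. The tables were made separately, and a level of the double positive library set beside one of EH_2 or EH_1 carries that limit throughout. The markers of endothelium separated the libraries widely. The kdrl gene stood at 428 FPKM in the double positive library, 1.42 FPKM in EH_2 and 62.9 FPKM in EH_1. The endothelial cadherin gene cdh5 stood at 843, 0.786 and 202 FPKM in the same order, and sele at 415, 0.254 and 86.97 FPKM. EH_1 also held many transcripts of other cells. The 8 myeloid markers found in both tables summed to 227 FPKM in the double positive library, 53.9 FPKM in EH_2 and 2322 FPKM in EH_1, and the 10 epidermal markers to 222, 8010 and 3481 FPKM. No marker counted in these sums was listed at 0 in any library. In bulk libraries such as these, fewer cells of a type and less RNA per cell cannot be told apart.

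The Cx37 relative cx39.4 (ENSDARG00000070357) had the highest level of the 3 genes in the double positive library and the widest range over the libraries. It stood at 34.7 FPKM in the double positive cells, 0.313 FPKM in EH_2 and 3.31 FPKM in EH_1. These values placed it at the 83.7th rank percentile of the double positive table, at the 35.4th in EH_2 and at the 62.0th in EH_1. Its place in the library was thus high in the double positive cells, in the middle range in EH_1 and low in EH_2.

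The Cx40 relatives were lower and close to each other in the double positive library. The gene cx41.8 (ENSDARG00000069450) stood at 12.3 FPKM in the double positive cells, 0.979 FPKM in EH_2 and 3.51 FPKM in EH_1. Its rank percentiles were 64.3 in the double positive table, 44.5 in EH_2 and 62.8 in EH_1. The gene cx45.6 (ENSDARG00000040065) stood at 12.1 FPKM in the double positive cells, 0.819 FPKM in EH_2 and 1.64 FPKM in EH_1. Its rank percentiles were 63.9, 42.9 and 52.3 in the same order. All 3 genes therefore had the order double positive, EH_1, EH_2 from high to low.

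**Figure D1:**
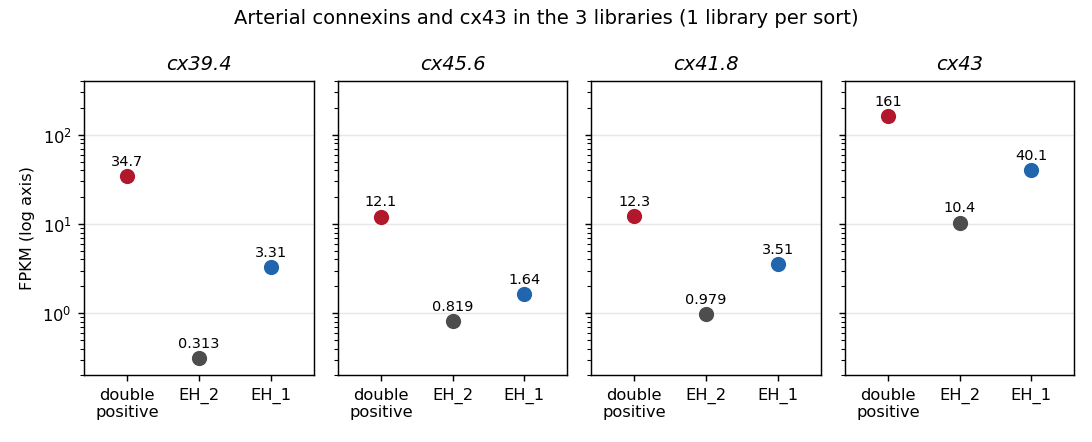
FPKM (log axis) of the 3 arterial connexin genes and of cx43 in the double positive, EH_2 and EH_1 libraries, with 1 point per library and no replicates. Each of the 4 genes was highest in the double positive library and lowest in EH_2, and cx39.4 covered the widest range, with 34.7, 0.313 and 3.31 FPKM.

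The tables list different numbers of genes, so the ranks were also taken among the 12122 symbols present once in both. On that scale cx39.4 lay at the 82.4th percentile in the double positive library, the 10.8th in EH_2 and the 37.9th in EH_1. The percentiles of cx41.8 were 61.95, 18.5 and 39.0, and those of cx45.6 were 61.5, 17.0 and 26.3. The order of the libraries was the same for each gene, and the gap between the double positive library and EH_1 was wider than on the scale of all genes. The order double positive over EH_1 over EH_2 was common, since 35.2% of the 12122 symbols had it.

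Ratios between the genes within a library do not depend on how that library was scaled. The ratio of cx39.4 to cx41.8 was 2.81 in the double positive library, 0.32 in EH_2 and 0.943 in EH_1. The ratio of cx45.6 to cx41.8, the pair of Cx40 relatives, was 0.98 in the double positive library, 0.836 in EH_2 and 0.468 in EH_1. The leading gene of the 3 was thus cx39.4 in the double positive cells and cx41.8 in both kdrl:GFP libraries, by a narrow margin over cx39.4 in EH_1. In EH_2 all 3 lay under 1 FPKM, on an unknown number of fragments, so that their order and ratios there are uncertain. Gene models can differ between the tables, and a difference in modelled gene length would move these ratios between the double positive and the kdrl:GFP libraries.

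Set against endothelial genes of the same library, the members differed from one another. The level of cx39.4 was 4.11% of that of cdh5 in the double positive library and 1.63% in EH_1. For cx45.6 the values were 1.43% and 0.812%, and for cx41.8 they were 1.46% and 1.73%. Against kdrl, cx39.4 stood at 8.10% in the double positive library and 5.26% in EH_1, cx45.6 at 2.82% and 2.61%, and cx41.8 at 2.88% and 5.58%. The values of cx45.6 against kdrl were close in these libraries, as were those of cx41.8 against cdh5. Relative to both endothelial genes, cx39.4 and cx45.6 were higher in the double positive cells than in EH_1 and cx41.8 was lower. The median of 20 general endothelial genes gave the same order, at 15.6% and 6.07% for cx39.4, 5.43% and 3.01% for cx45.6, and 5.54% and 6.44% for cx41.8. The Ets factor gene fli1a gave another picture for cx41.8. Against it all 3 members were higher in the double positive library, at 9.05% and 1.37% for cx39.4, 3.16% and 0.679% for cx45.6, and 3.22% and 1.45% for cx41.8. The direction for cx41.8 therefore depended on the endothelial gene it was set against. In EH_2 the median of the 20 general endothelial genes was 0.709 FPKM, so that a percentage of it is not informative there. These ratios were computed after the levels had been seen.

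Among the connexin genes named by cx and a digit, the 3 members followed directly behind cx43 in the double positive cells. The gene cx43, now gja1b, encodes the most widely used connexin and stood at 161 FPKM in that library. Ranks 2, 3 and 4 of the 28 connexin genes were held by cx39.4, cx41.8 and cx45.6, and cx43.4 followed at 9.64 FPKM. Of the 25 other connexin genes, 1 reached 10 FPKM, 7 lay between 1 and 10 FPKM and 17 lay under 1 FPKM. Of these 17 genes, 5 were listed at 0. The median over all 25 was 0.61 FPKM.

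In the kdrl:GFP libraries the members stood lower in the family. In EH_2, cx41.8, cx45.6 and cx39.4 held ranks 15, 16 and 24 of 31 connexin genes, and the leading genes were cx30.3 at 49.5 FPKM, cx43.4 at 27.9 FPKM and cx43 at 10.4 FPKM. In EH_1, cx41.8, cx39.4 and cx45.6 held ranks 6, 7 and 11, behind cx43 at 40.1 FPKM, cx32.2 at 20.3 FPKM, cx43.4 at 15.9 FPKM, cx30.3 at 9.28 FPKM and cx35.4 at 8.10 FPKM. The neighbours of cx41.8 and cx39.4 in EH_1 were close, with cx36.7, a gene needed for heart formation in zebrafish, at 3.04 FPKM.

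**Figure D2:**
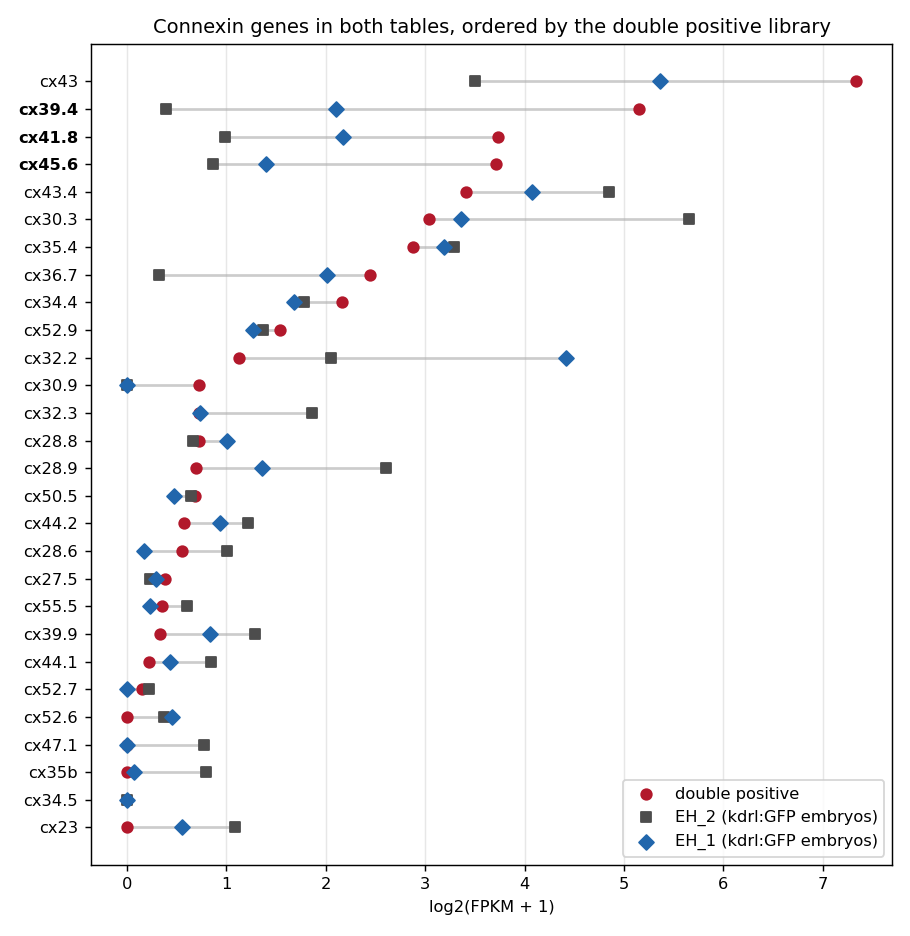
The 28 connexin genes present in both tables, on the log2(FPKM + 1) axis, with circles for the double positive library, squares for EH_2 and diamonds for EH_1, ordered by the double positive library. The 3 arterial connexin genes, in bold, follow cx43 and have their circle to the right of both other symbols, whereas cx43.4, cx30.3 and cx35.4 have it to the left.

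The members made up 22.8% of the summed connexin FPKM of the double positive library, 1.69% of that of EH_2 and 7.06% of that of EH_1. Connexin genes under names other than cx and a digit were not in these sums. The share of cx39.4 alone was 13.4% in the double positive library, 0.25% in EH_2 and 2.76% in EH_1. The share of cx43 was 62.0%, 8.27% and 33.5% in the same order. Members and cx43 together therefore took most of the connexin signal in the double positive cells but less than that of the other connexins in both kdrl:GFP libraries. Relative to cx43, cx39.4 stood at 21.6% in the double positive library, 3.03% in EH_2 and 8.24% in EH_1, while cx41.8 stood at 7.67%, 9.46% and 8.74%. For cx45.6 the ratio was 7.53%, 7.91% and 4.09%. The ratio to cx43 thus varied most for cx39.4 and least for cx41.8, with cx45.6 between them.

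**Figure D3:**
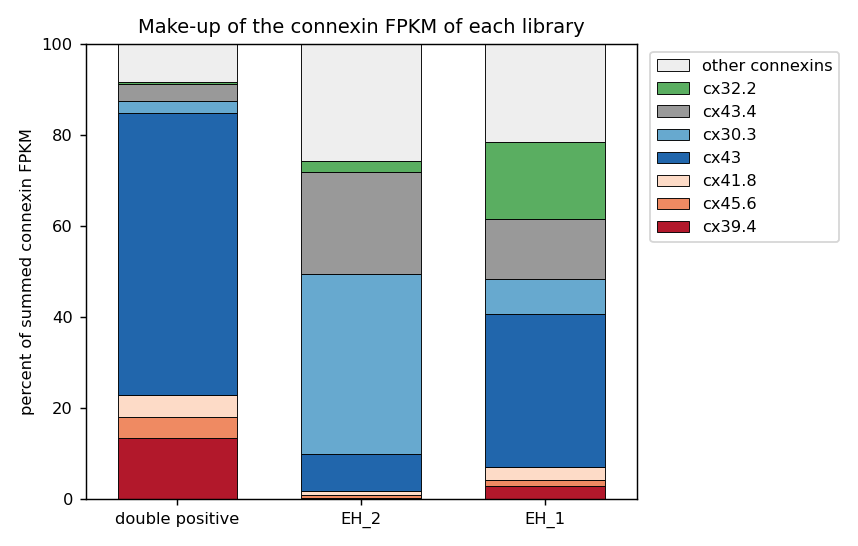
Percent of the summed connexin FPKM (vertical axis) held by the 3 arterial connexins, cx43, cx30.3, cx43.4, cx32.2 and all other connexin genes in the double positive, EH_2 and EH_1 libraries. Only genes named by cx and a digit are counted. The arterial connexins hold 22.8%, 1.69% and 7.06%, and cx30.3 is the largest single part in EH_2.

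Of the 28 connexin genes in both tables, 10 (35.7%) were highest in the double positive library, against 53.5% of all 12122 symbols. The order double positive, EH_1, EH_2 was held by 6 (21.4%), against 35.2% of all symbols, so that neither share of the family lay above that of all genes. Those 6 were the 3 members, cx43, cx36.7 and cx27.5. The gene cx36.7 stood at 4.44 FPKM in the double positive cells, 0.25 FPKM in EH_2 and 3.04 FPKM in EH_1, and cx27.5 lay under 0.3 FPKM in each library. The gene cx32.2 had another pattern, with 1.19 FPKM in the double positive cells, 3.14 FPKM in EH_2 and 20.3 FPKM in EH_1. The myeloid markers were also highest in EH_1. Their part in this value was not tested.

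The EH_2 and EH_1 libraries stand in 1 table, so their difference was computed for each gene as log2((EH_2 + 1) / (EH_1 + 1)), where the added 1 FPKM damps low values. It was -1.71 for cx39.4, -1.19 for cx41.8 and -0.54 for cx45.6, so that all 3 were lower in EH_2. Past 2-fold, 2 of the 3 were lower in EH_2 and none was higher. Among the 20025 genes with at least 1 FPKM in either library, 10.4% were lower in EH_2 by 2-fold or more and 12.6% were higher, with a median difference of -0.01. The call of cx45.6 turned on the added value, since without it the difference was -1.00446, just past 2-fold. Levels of this size rest on an unknown number of fragments.

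The other connexin genes had no common direction between these libraries. Of 28, 16 had at least 1 FPKM in either library. Of these 16, 3 were lower in EH_2 by 2-fold or more, 3 were higher and 10 lay between, with a median difference of 0.20. The lower ones were cx32.2 at -2.37, cx43 at -1.86 and cx36.7 at -1.69, and the higher ones were cx30.3 at 2.30, cx28.9 at 1.25 and cx32.3 at 1.13.

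Most endothelial markers differed in the same direction as the members, with larger medians in each list below. Of 24 general endothelial genes tested, 23 were lower in EH_2 by 2-fold or more, with a median of -4.39 and with cdh5 at -6.83 and kdrl at -4.72. Of 16 venous, lymphatic and scavenging genes, 10 were lower, with a median of -3.13. Their highest member in the double positive library, the scavenger receptor gene stab1, stood at 453 FPKM there, 1.47 FPKM in EH_2 and 74.3 FPKM in EH_1. All 10 myeloid genes tested were lower in EH_2 too, with a median of -3.57, and their part in the members' difference was not tested. Of 30 arterial genes other than the members, 17 were lower, none was higher and the median was -1.60. In the arterial list, the water channel gene aqp1a.1 had 908 FPKM in the double positive cells, 19.2 FPKM in EH_2 and 215 FPKM in EH_1. The tight junction gene cldn5b had 653, 5.57 and 126 FPKM and the water channel gene aqp8a.1 had 568, 1.22 and 73.8 FPKM in the same order. The ephrin gene efnb2a, an arterial marker with 183 FPKM in the double positive cells, had 37.4 FPKM in EH_2 and 54.0 FPKM in EH_1, a difference of -0.52. The members therefore lay within the range of the arterial list. With 1 FPKM added, genes at the members' EH_1 levels of 1.64 to 3.51 FPKM could not reach the medians of -3.13, -3.57 and -4.39. At 1.64 FPKM in EH_1, cx45.6 could not reach the arterial median of -1.60 either. On this scale the larger medians of these lists therefore do not set the members apart from them. Without an added value, the differences were -3.40 for cx39.4, -1.84 for cx41.8 and -1.00446 for cx45.6. The median level of 20 general endothelial genes was 0.709 FPKM in EH_2 and 54.5 FPKM in EH_1. As a ratio, this gap was wider than that of any member. For the 30 arterial genes the median level was 6.47 and 21.3 FPKM, a narrower gap than those of cx39.4 and cx41.8. The members' EH_2 levels, all under 1 FPKM, leave these comparisons uncertain.

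**Figure D4:**
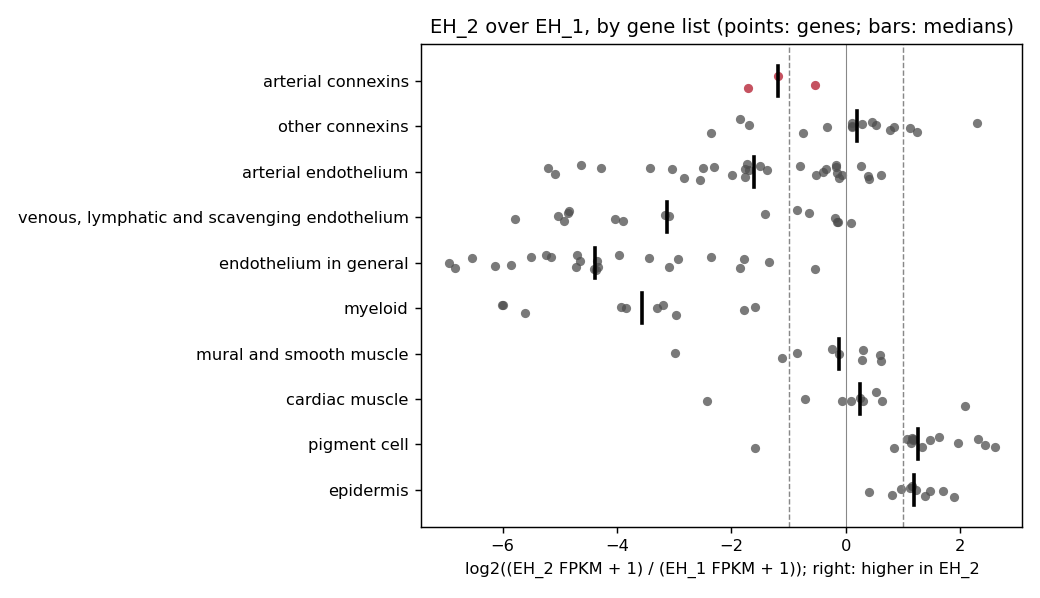
Difference between EH_2 and EH_1 on the log2(FPKM + 1) scale (horizontal axis, right meaning higher in EH_2) for genes with at least 1 FPKM in either library, by gene list, with 1 point per gene and a bar at the median. Dashed lines mark 2-fold, and the arterial connexins lie at -1.71, -1.19 and -0.54. The other connexins have a median of 0.20 and the general endothelial genes a median of -4.39. With 1 FPKM added, genes as low in EH_1 as the arterial connexins could not reach the latter.

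Regulators known to act on arterial genes or in the response to blood flow mostly had the order of the members. Of 19 tested, 12 were lower in EH_2, 1 was higher and 6 lay between, with a median of -1.35. Of the 18 in both tables, 15 had the order double positive, EH_1, EH_2, a share to be read against the 35.2% of all symbols. The order was not particular to regulators. It was held by 20 of 20 general endothelial genes, 13 of 14 venous, lymphatic and scavenging genes and 22 of 30 arterial genes. Several regulators, such as notch1b, dll4 and sox7, are also in the arterial list, so these lists are not independent. The Notch receptor gene notch1b stood at 186 FPKM in the double positive cells, 21.3 FPKM in EH_2 and 87.6 FPKM in EH_1. The flow-responsive factor gene klf2a stood at 173, 5.04 and 39.37 FPKM, and its paralog klf2b at 534, 105 and 143 FPKM. The SoxF gene sox7 stood at 217 FPKM, 5.06 FPKM and 48.7 FPKM.

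Genes listed as partners of the gap junction plaque or its scaffold were mixed, and the list includes cadherin, catenin, tubulin and motor genes. Of 20 such genes tested, 2 were lower in EH_2, 3 were higher and 15 lay between, with a median of 0.38. These shares are near those of all genes, 10.4% lower and 12.6% higher. Of the 13 in both tables, 4 had the order double positive, EH_1, EH_2, and cdh5, cav1 and tjp2b were among them. The lower ones were cdh5 and the cingulin-like gene cgnl1. Besides cdh5, the caveolin gene cav1 stood at 379 FPKM in the double positive cells, 52.3 FPKM in EH_2 and 80.7 FPKM in EH_1, and the catenin gene ctnnb1 at 310, 219 and 203 FPKM. The scaffold gene tjp2b stood at 53.5, 16.9 and 26.4 FPKM. Pannexins form channels in the membrane of single cells without belonging to the connexin family. Their highest member panx1a stood at 11.02 FPKM in the double positive cells, 7.39 FPKM in EH_2 and 6.80 FPKM in EH_1, and of 3 tested 1, panx2, was higher in EH_2.

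Cell types other than endothelium that can use these connexins were looked at through their markers. Pigment cell markers ran against the members, since their 12 genes in both tables summed to 11.2 FPKM in the double positive cells, 184 FPKM in EH_2 and 53.3 FPKM in EH_1. Of 14 tested, 12 were higher in EH_2 and 1, the macrophage and pigment cell receptor gene csf1ra, was lower. The highest of them in the double positive library, the Gtp cyclohydrolase gene gch2, stood at 2.72 FPKM there. Cardiac markers summed to 160 FPKM in the double positive cells, 36.6 FPKM in EH_2 and 60.2 FPKM in EH_1, of which gata4, which is not confined to heart, held 144, 5.74 and 35.4 FPKM. After gata4, the highest in the double positive library were the troponin gene tnni1b, at 8.49 FPKM there, 1.80 FPKM in EH_2 and 1.37 FPKM in EH_1, and the factor gene hand2, at 6.25, 4.36 and 7.79 FPKM. The cardiac myosin genes myl7, vmhc and myh6, picked after their values were seen, stood at 0.641, 0.347 and 0.0637 FPKM in the double positive cells. Mural and smooth muscle markers summed to 82.8 FPKM in the double positive cells, 62.6 FPKM in EH_2 and 76.3 FPKM in EH_1, and 2 of the 8 in both tables had that order. In that list the actin gene acta2 stood at 1.24, 2.45 and 1.83 FPKM, and myh11a at 19.2, 1.14 and 15.9 FPKM. The part of these cells in the members' values was not tested.

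Each member lies near another connexin gene in the order of genes on its chromosome, a feature not used to choose them. In the gene table, cx45.6 is directly beside cx50.5 and cx41.8 directly beside cx44.1, with 0 protein-coding genes between. Both neighbours are relatives of the Cx50 gene, known for its use in the lens. The gene cx39.4 has cx30.9 nearby, with 2 protein-coding genes between. The neighbours were low in all 3 libraries. Most other connexin genes were low in the double positive library too. There 17 of the 25, the neighbours among them, lay under 1 FPKM, and the median over all 25 was 0.61 FPKM. In the double positive library cx50.5 stood at 0.61 FPKM, cx44.1 at 0.163 FPKM and cx30.9 at 0.657 FPKM, and none of them reached 1 FPKM in EH_2 or EH_1.

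The genes most like each member were sought by the distance between their log2(FPKM + 1) values over the 3 libraries. With 3 libraries such likeness describes levels and no more. Nearest to cx39.4 were itga2b, an integrin gene of thrombocytes, at a distance of 0.52, the ectonucleotidase gene entpd8 at 0.679 and ccdc80 at 0.756. Nearest to cx45.6 were the decoy cytokine receptor gene il13ra2 at 0.238, the thymidine kinase gene tk1 at 0.272 and the ATP receptor gene p2rx4a at 0.327. Nearest to cx41.8 were the monoamine transporter gene slc18a2 at 0.177, serac1 at 0.261 and the zinc finger gene osr2 at 0.266. The Cx40 relatives lay 0.78 from each other, and 37 genes lay at least as near to cx45.6 as cx41.8 did, itself included. The distance of cx39.4 was 1.68 to cx45.6 and 1.54 to cx41.8. Among the 12122 symbols, cx41.8 was 37th and cx45.6 61st in nearness to cx39.4, which had 0 genes within 0.5. Counted from cx41.8, cx45.6 was 48th and cx39.4 753rd, and counted from cx45.6, cx39.4 was 680th. No member was thus among the 3 nearest genes of another, though several of these places were near the top of the list.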

How the data were processed

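RNA from cells sorted out of 72 hour embryos was sequenced, with 10000 to 300000 cells per sort and 50 ng of RNA per library, per the labels' protocols. The authors deposited FPKM values. The unit is named in the sheet of the double positive table; for the kdrl:GFP table it was read from the sheet's name, that of a Cufflinks comparison output. The build was Zv9 (danRer7) and the tools were TopHat2 2.0.11, Cufflinks 2.2.1 and cutadapt, per the submitters' processing notes. The annotation and the handling of multiply mapping reads are not stated in the sources at hand. FPKM sums were 534600 in the double positive library, 705390 in EH_2 and 777212 in EH_1.

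The number of fragments per library is unknown, so no counting interval can be given. Among 949 genes above 0 and under 0.3 FPKM in both EH libraries, the commonest ratio of EH_2 to EH_1 was about 0.785. That would make EH_2 the deeper by about 1.27 times if these genes had equal fragment numbers.

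Levels, ranks and log2((EH_2 + 1) / (EH_1 + 1)) were computed with Python 3.11.15 and pandas 2.3.3 and tested on simulated data. Symbols were matched exactly, except that upper case was allowed for connexins; genes with several identifiers were left out of lists. Current names came from a gene table of assembly GRCz12tu, whose coordinates were used only for the order of genes along a chromosome. The named genes are the members, connexins among the 5 highest of a library, kdrl, cdh5, sele, up to 3 leading genes per list and the 3 nearest genes per member. Others, such as cx36.7, cx27.5, the connexins past 2-fold, efnb2a, klf2a, tjp2b, myl7, vmhc, myh6, acta2 and the neighbours, were chosen after their values were seen. Members and lists were chosen with earlier results of these data known. Alternatives were other sets of ranked genes, scalings, family limits, added values and filters. No value column was left unused.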

Additional observations from a re-analysis of the deposited data

How the results depend on the processing

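The limits are 1 library per sort, an unknown number of fragments, and tables with different gene sets. With no error available, a level was taken to move past 1.5 times and a percentile past 5 points. Scaled to TPM, the double positive levels were 64.8 for cx39.4, 22.6 for cx45.6 and 23.1 for cx41.8. With the 20 highest genes of each library left out of that sum, they were 81.8, 28.5 and 29.1 in the double positive library, 0.748, 1.96 and 2.34 in EH_2, and 7.29, 3.62 and 7.74 in EH_1. Ranked only among genes above 0, the percentiles of cx39.4 were 10.3 in EH_2 and 46.2 in EH_1. Those of cx45.6 were 58.6 in the double positive library, 20.6 in EH_2 and 32.5 in EH_1, and those of cx41.8 were 59.1, 22.97 and 47.4. Among genes of at least 1 FPKM, cx39.4 lay at 77.7 in the double positive library and 28.9 in EH_1, cx45.6 at 50.7 and 10.8, and cx41.8 at 51.3 and 30.5. In EH_2 no member reached 1 FPKM, so that no value was had. Among symbols in both tables, cx39.4 lay at 10.8 in EH_2 and 37.9 in EH_1, cx45.6 at 17.0 and 26.3, and cx41.8 at 18.5 and 39.0. With further connexin genes added under gj names, the family rank was 29 for cx39.4, 19 for cx45.6 and 18 for cx41.8 in EH_2, and 12 for cx45.6 in EH_1. Without an added value, the difference of cx45.6 was -1.00446, past 2-fold. With a minimum of 5 FPKM, which leaves fewer genes to test, 1556 genes were higher in EH_2, against 2528, and 1469 were lower, against 2073. With 0.1 FPKM added in place of 1, 3789 were higher and 2694 lower, and with TPM 3447 were higher and 2033 lower. None of the settings tried turned a member's direction between EH_2 and EH_1. No paired analysis was possible because each sort has 1 library.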
